A study of Homo sapiens with 9 samples.

Results

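The 39 protein-coding genes of the HOXA, HOXB, HOXC and HOXD clusters were examined in OVCAR5, an established line of human ovarian cancer cells. They were selected by symbol alone (HOX, a cluster letter from A to D and a number) and make up 39 of the 60649 genes in the count table. Enough counts for a test were found for 27 of them, among 19674 tested genes in all. A further 9 had counts but too few to be tested, and 3 had 0 counts in all 9 libraries.

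The 9 RNA-seq libraries form 3 groups of 3, labelled NC, SM2 and SM4. All groups, NC included, derive from OVCAR5 cells made stable by lentiviral transduction and puromycin selection. The labels give NC as the control and describe SM2 and SM4 as METTL3 knockdown. METTL3 is the catalytic subunit of the complex that writes N6-methyladenosine on RNA. The labels do not tell which hairpin each of SM2 and SM4 carries, they call NC parental whereas the methods describe a control hairpin, and a source field names another OVCAR line for each SM4 library although OVCAR5 is the stated cell line throughout. Nothing states that libraries of a group came from separate cultures, so p-values measure the spread between these libraries, which may be technical.

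METTL3 itself went against the labels. Its level, in counts scaled to the library size with TMM factors (CPM), was 34.4 to 36.6 in the NC libraries, 37.0 to 40.0 in those labelled SM2 and 57.5 to 62.4 in those labelled SM4. The log2 fold change was 0.12 for SM2 (adjusted p = 0.12) and 0.75 for SM4 (adjusted p = 2.21e-09), so METTL3 was highest in a group labelled as knockdown and lower in the group labelled as control. The paper reports lower METTL3 in both knockdowns than in the hairpin control. The log2 fold changes there have the size of those for SM4 against NC (0.75) and SM4 against SM2 (0.63) here, with the opposite sign. The paper's values for PECAM1 and LYZ against its hairpin control likewise have the size of those here, with the opposite sign. PECAM1 had 1.32 for SM4 against NC and 0.73 for SM4 against SM2 here, and LYZ had -0.17 and -0.67. An exchange of the labels NC and SM4 would give this order of METTL3 and these sizes. Whether it took place was not tested. Which group is the control is thus in doubt. NC, SM2 and SM4 are used below only as names of libraries, and "rose" and "fell" mean higher or lower than in the libraries labelled NC, not a response to knockdown. If SM4 were the control, the comparisons with it would be those of SM4 against NC and SM4 against SM2 below, with every sign turned. SM2 against NC would then compare the knockdown groups with each other. SM2 replicate 3 stood apart from its group: the chi-square per degree of freedom was 16.1 and 13.4 for its pairs, against 4.16 to 6.01 for the other 7 pairs of replicates. The libraries held 44103272 to 63693728 counts, so 1 CPM equalled 43.9 to 63.2 counts and 3 counts equalled 0.0474 to 0.0684 CPM. These limits cover counting error only.

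HOX genes encode homeodomain transcription factors that assign position along the body axis. Within each cluster the genes lie in the order in which they act from anterior to posterior, and genes at the same position in different clusters form a paralog group, which the number in the symbol gives. In the Müllerian duct, the embryonic source of the female reproductive tract, HOXA9, HOXA10, HOXA11 and HOXA13 mark successive segments from the oviduct to the cervix and vagina. Polycomb complexes keep HOX clusters repressed and MLL complexes maintain their transcription, and HOX proteins bind DNA together with PBX and MEIS cofactors.

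The labelled epithelial origin was checked first. All 12 epithelial markers were tested genes, with a summed level of 12000 to 12500 CPM in the NC libraries, 13400 to 14000 in SM2 and 13000 to 13800 in SM4. KRT8 alone averaged 4840 CPM in NC. Of 9 leukocyte markers 3 could be tested; the defining marker PTPRC stayed at or below 0.0754 CPM in every library, and CD3D and MS4A1 had 0 counts. Of 9 fibroblast markers 3 could be tested, of which COL1A1 was the only 1 with a group mean of at least 1 CPM. Of 6 endothelial markers 2 could be tested. KDR had 0 counts, while PECAM1 averaged 5.47 CPM in NC, 8.23 in SM2 and 13.7 in SM4. Against NC, 6 epithelial markers were higher and 2 lower in SM2 (66.7% of the 12 called, beside 22.3% of all tested genes), and 6 were higher and 1 lower in SM4 (58.3%, beside 21.2%). LYZ and CD14, the leukocyte markers with a group mean of at least 1 CPM, averaged 36.7 and 5.76 CPM in NC, 51.9 and 8.47 in SM2 and 32.7 and 10.3 in SM4, all called against NC, as was PECAM1 in both comparisons. The LYZ call in SM4 (-0.17) was lost in 7 of the 17 alternatives, among them upper-quartile normalization, no filter, NC replicate 1 left out (-0.18, adjusted p = 0.0737), NC replicate 3 (-0.13, adjusted p = 0.185), SM2 replicate 2 (-0.17, adjusted p = 0.0524), SM4 replicate 1 (-0.13, adjusted p = 0.211) and SM4 replicate 3 (-0.18, adjusted p = 0.0723). Of the 3 fibroblast markers tested, edgeR and DESeq2 called 0, and 1 had an unadjusted p below 0.05 in each comparison. The share of all tested genes at that unadjusted threshold was not counted. The part of these marker differences in the HOX values was not tested. In bulk RNA, fewer cells that express a gene and less RNA per cell cannot be told apart.

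CpG-rich starts occur both in HOXA, a cluster with transcripts, and in HOXD, the cluster nearly without. Windows before the transcription start are shown for a member low in SM2, a posterior member high in SM4 and a member with 0 counts. Each holds the 250 bases upstream of a RefSeq start (GRCh38.p14), written 5′ to 3′ along the gene, with every CG in capitals.
HOXA2 (chr7:27102684-27102933, minus strand): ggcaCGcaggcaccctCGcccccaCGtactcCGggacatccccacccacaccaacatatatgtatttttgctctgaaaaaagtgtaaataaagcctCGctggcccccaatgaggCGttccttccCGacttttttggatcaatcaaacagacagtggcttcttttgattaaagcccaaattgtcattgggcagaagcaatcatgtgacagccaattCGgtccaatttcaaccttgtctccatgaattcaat
HOXA13 (chr7:27200092-27200341, minus strand): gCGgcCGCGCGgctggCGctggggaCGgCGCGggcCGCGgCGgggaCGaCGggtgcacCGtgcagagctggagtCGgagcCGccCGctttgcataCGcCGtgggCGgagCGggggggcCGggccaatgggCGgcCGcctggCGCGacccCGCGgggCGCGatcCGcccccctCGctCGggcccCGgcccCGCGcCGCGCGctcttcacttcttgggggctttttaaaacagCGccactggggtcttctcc
HOXD1 (chr2:176188418-176188667, plus strand): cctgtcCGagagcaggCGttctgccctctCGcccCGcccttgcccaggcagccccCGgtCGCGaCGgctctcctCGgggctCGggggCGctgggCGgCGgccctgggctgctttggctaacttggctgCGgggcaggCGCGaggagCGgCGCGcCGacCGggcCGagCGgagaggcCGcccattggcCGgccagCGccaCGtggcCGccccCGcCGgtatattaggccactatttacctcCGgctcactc
The HOXA2 window holds 8 CG, the HOXA13 window 40 and the HOXD1 window 31. RefSeq promoter windows, which run from 250 bases before to 50 after the start, were available for 20 of the 39 genes, 27 windows in all. Those not in the table include HOXA5, HOXB2, HOXB3, HOXB4, HOXB5, HOXB6, HOXB7, HOXB8, HOXB9, HOXB13, HOXC6, HOXC8, HOXC9, HOXC10, HOXC11, HOXC12, HOXC13 and HOXD9. The HOX windows had a median of 22 CG, against 14 over all 35116 windows. The median was 21.5 for the 16 HOXA windows and 24.5 for the 8 HOXD windows. The only HOXB window, that of HOXB1, held 11 CG. The window listed for both HOXC4 and HOXC5 held 15. Of the HOXA windows, 7 belong to alternative starts of HOXA3. TGATTGAT, a site for PBX with a HOX partner, was searched on both strands and occurred in 2 HOX windows, those of HOXA2 and HOXD11 (7.41%, against 0.484% of all windows). The TATA box letters TATAAA occurred in 5 HOX windows (18.5%, against 11.5%) and the CDX letters TTTATG in 3 (11.1%, against 10.6%). These matches are descriptions of the letters in the windows and not binding sites.

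Transcripts came from the HOXA, HOXB and HOXC clusters, and HOXD was silent or nearly so. All 11 HOXA genes on chromosome 7 were tested, as were 9 of 10 HOXB genes (chr17:48528526-48728750), 7 of 9 HOXC genes (chr12:53938831-54056030, 117 kb) and 0 of 9 HOXD genes (chr2:176092721-176190907, 98.2 kb). In NC the summed level was 124 ± 4.25 CPM for HOXA (SD, n = 3), 256 ± 5.06 for HOXB, 16.3 ± 0.966 for HOXC and 0.133 ± 0.0395 for HOXD. HOXB thus held 64.6% of the summed HOX CPM, HOXA 31.3%, HOXC 4.11% and HOXD 0.0335%. A mean of at least 1 CPM over the 9 libraries was reached by 23 of the 39 genes.

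**Figure D1:**
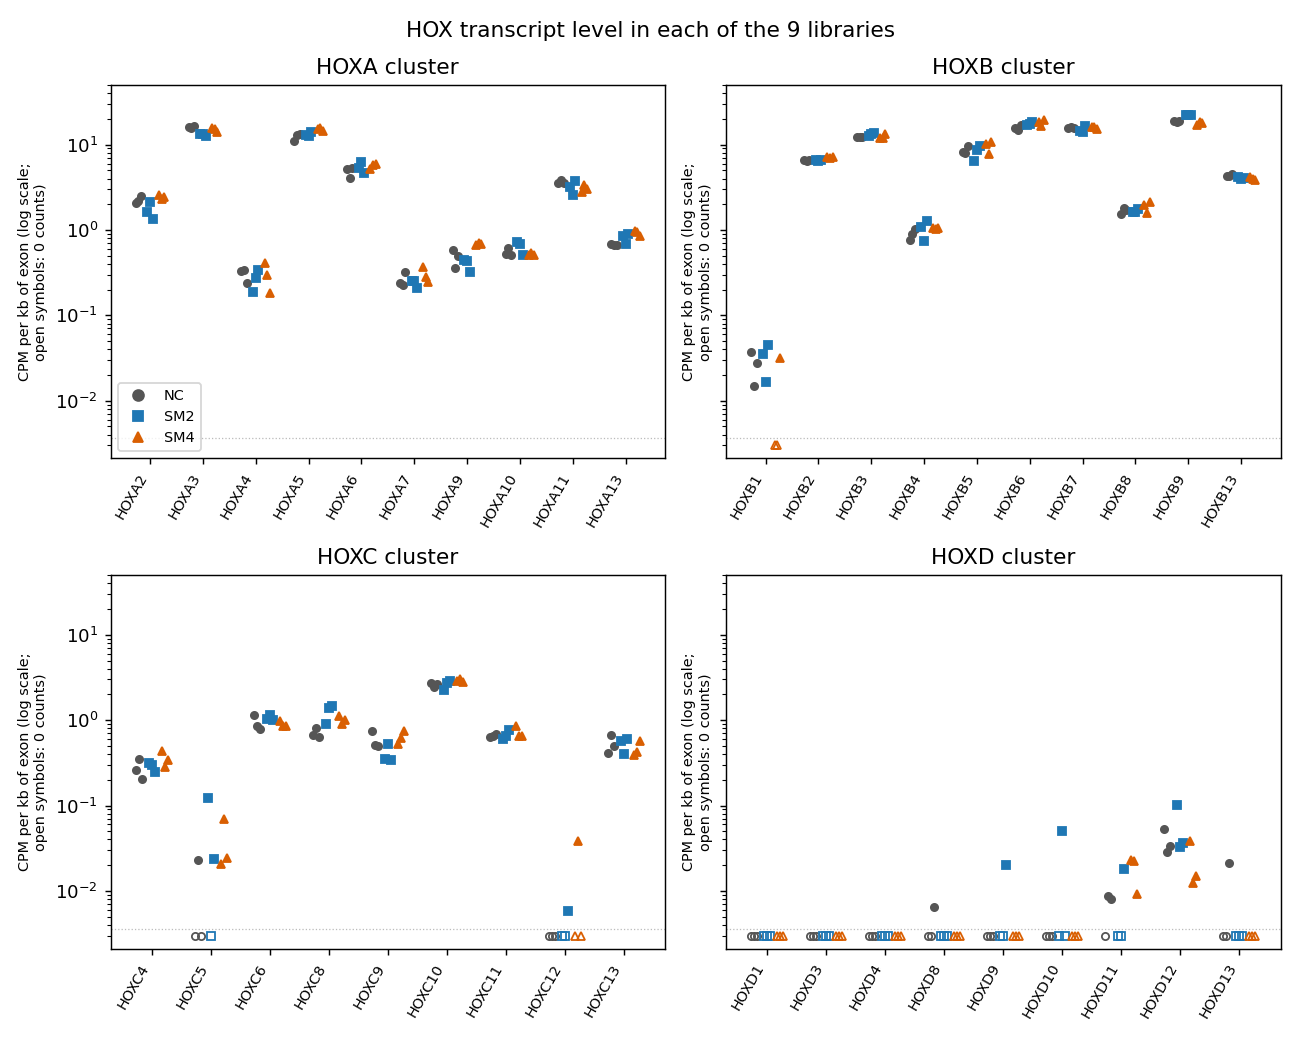
Level of the named HOX genes in the 9 libraries, as CPM per kilobase of merged exons on a log axis, by cluster and paralog number; each symbol is 1 library and open symbols below the dotted line mark 0 counts. HOXA and HOXB genes reach 16.1 and 18.7 CPM per kilobase in NC, HOXC genes reach 2.62, and most HOXD libraries sit at 0 counts.

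In HOXD, HOXD1, HOXD3 and HOXD4 had 0 counts in every library. With 3 counts as the limit that a count of 0 allows, their level was below 0.0474 to 0.0684 CPM, depending on the library. HOXD12 had 6, 4 and 5 counts in the NC libraries, 12, 4 and 5 in SM2 and 6, 2 and 2 in SM4. It was the only member of the cluster with a count in all 9 libraries. HOXD11 had between 0 and 3 counts. HOXD13 had 3 counts in NC replicate 3, HOXD10 had 6 in SM2 replicate 2, HOXD9 had 2 in SM2 replicate 3 and HOXD8 had 1 in NC replicate 3, with 0 counts in the other libraries. The cluster collected 69 counts over all 9 libraries, and 3 to 12 per library.

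Genes beside HOXD were transcribed. LNPK, which shapes the endoplasmic reticulum, averaged 56.6 CPM in NC, the mitochondrial import gene MTX2 averaged 64.2, the ATP synthase gene ATP5MC3 279 and the transcription factor gene ATF2 63.4. EVX2, the homeobox gene next to HOXD13, had 0.00569 CPM in NC and 0 counts in SM2 and SM4. The near absence of counts thus covered the HOXD genes and EVX2, and not these 4 flanking genes.

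Outside HOXD, 3 members were under the filter. HOXB1, the most anterior HOXB gene, had 0 to 6 counts per library, HOXC5 had 0 to 9 and HOXC12 had 1 count in SM2 replicate 3 and 8 in SM4 replicate 2. For HOXC5, 67.3% of the exon bases are shared with other annotated genes, so its counts depend on how shared reads were assigned. With HOXC12 and HOXD12 both under the filter, paralog group 12 was the only 1 of 13 groups with no tested member.

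Levels between genes were compared as CPM per kilobase of merged exons. HOXB9 was highest in NC with 18.7 ± 0.188 CPM per kilobase (SD, n = 3). It was followed by HOXA3 with 16.1 ± 0.516, HOXB7 with 15.8 ± 0.416 and HOXB6 with 15.8 ± 1.04 CPM per kilobase, 3 genes that did not differ beyond their spread. HOXA5 (12.4 ± 1.22 CPM per kilobase) and HOXB3 (12.3 ± 0.158) formed the next pair that could not be ordered. The order at the top depends on the length used: with the canonical transcript HOXB3 came first with 27.6 CPM per kilobase and HOXB9 ranked 4 with 18.7, and with exon bases shared by no other gene HOXB6 came first with 23.5. The 6 genes with the highest level per kilobase in NC were the same under each length.

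The anterior paralog groups were carried by HOXA and HOXB. In group 2, HOXB2 had 6.57 and HOXA2 2.24 CPM per kilobase, and in group 3 HOXA3 and HOXB3 had the levels given above. Paralog group 4 was low in each cluster, with 0.895 CPM per kilobase for HOXB4, 0.302 for HOXA4 and 0.273 for HOXC4. The low values of HOXA4 and HOXB4 thus lay between higher neighbours, since HOXA3, HOXA5, HOXB3 and HOXB5 (8.58 CPM per kilobase) all stood above them. HOXA4 shares 47.8% of its exon bases with other genes.

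Among the central groups, HOXB genes were highest in groups 6, 7 and 8. HOXA6 had 4.84 and HOXC6 0.929 CPM per kilobase in NC, below HOXB6. HOXA7 had 0.264 CPM per kilobase, far below its paralog HOXB7, and was the lowest of the 27 tested genes on this length alone: with the canonical transcript it had 0.315 and HOXA4 was lowest with 0.31, and with unshared exon bases it had 0.703, rank 20, and HOXC4 was lowest with 0.331. Of its exon bases 62.5% are shared, with the antisense gene HOXA-AS3, and whether strand was used in counting is not stated. Group 8 held HOXB8 with 1.69 and HOXC8 with 0.704 CPM per kilobase.

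The posterior groups differed between clusters. Next to HOXB9, HOXC9 had 0.58 and HOXA9 0.477 CPM per kilobase in NC. HOXC10 was the highest HOXC gene with 2.62 ± 0.156 CPM per kilobase (SD, n = 3), above HOXA10 with 0.55. HOXA11 had 3.66 and HOXC11 0.664. In group 13, HOXB13, which lies 98.4 kb from HOXB9, had 4.36 CPM per kilobase, HOXA13 had 0.678 and HOXC13 0.529. Of the HOXA genes that mark Müllerian segments, HOXA11 was thus the highest per kilobase.

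SM2 against NC compared the libraries labelled SM2 with those labelled as the control, a label that METTL3 puts in doubt. Among the 27 tested HOX genes, HOXC8 and HOXB9 rose and HOXA3 and HOXA2 fell. These 4 called genes are 14.8% of the 27, beside 22.3% of all tested genes; 12.0% of all tested genes were higher and 10.3% lower. Among the 23 HOX genes with a mean of at least 1 CPM, 4 were called (17.4%, beside 28.4% of all genes at that level). The median log2 fold change of the 27 was -0.002, that of all tested genes was -0.004, and the HOX values ran from -0.50 to 0.85. An unadjusted p below 0.05 was found for 6. The share of all tested genes at that unadjusted threshold was not counted. It is at least the 22.3% called, since adjustment never lowers a p-value. The libraries of SM2 and NC did not overlap for 6 HOX genes, and for 35.2% of all tested genes.

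HOXC8, a thoracic-level HOX gene of paralog group 8 (ENSG00000037965.6, chr12:54008985-54012769), had the largest difference. Its level was 1.62, 1.97 and 1.52 CPM in the NC libraries, 2.21, 3.39 and 3.58 in SM2 and 2.73, 2.17 and 2.40 in SM4. Every SM2 and every SM4 library lay above every NC library, and SM2 replicate 1 lay nearest to NC. The log2 fold change was 0.85 ± 0.189 (SE) for SM2 against NC (adjusted p = 0.00234, with a range of 8.17e-05 to 0.0158 over the alternatives). For SM4 it was 0.51 (adjusted p = 0.061), and SM4 against SM2 gave -0.34 (adjusted p = 0.26).

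HOXB9, the member with the highest level per kilobase of merged exons (ENSG00000170689.10, chr17:48621156-48626358), shares no exon base with another gene. Its level was 48.6, 47.7 and 48.5 CPM in NC, 57.2, 57.3 and 57.2 in SM2 and 43.3, 47.7 and 45.7 in SM4. The SM2 libraries were nearly equal and lay above all others, while the SM4 libraries lay at or below the lowest NC library. HOXB9 rose by 0.24 ± 0.05 on the log2 scale in SM2 (adjusted p = 0.00103). The SM4 value against NC was -0.08 (adjusted p = 0.271), and SM4 was lower than SM2 by a log2 difference of -0.33 ± 0.05 (adjusted p = 9.12e-05). Both calls held under all 17 alternatives.

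HOXA3 (ENSG00000105997.23, chr7:27106184-27152583) acts in pharyngeal and hindbrain patterning and was the HOXA gene with the most counts. Its level was 68.7, 67.8 and 72.0 CPM in NC, 56.6, 58.0 and 55.0 in SM2 and 67.4, 65.5 and 59.9 in SM4. The 3 SM2 libraries were the lowest and the 3 NC libraries the highest, with SM4 between. HOXA3 fell by 0.30 on the log2 scale in SM2 (SE 0.052, adjusted p = 0.000258), a call that held under all 17 alternatives. Of the HOXA3 exon bases 19.8% are shared with other genes, some of them antisense. No alternative varied how shared reads were assigned. SM4 against NC gave -0.11 (adjusted p = 0.139). SM4 lay above SM2 by 0.18 (adjusted p = 0.0222), which passed the threshold neither without SM4 replicate 1 (0.15, adjusted p = 0.158) nor without SM4 replicate 2 (0.17, adjusted p = 0.095); over the alternatives the adjusted p ran from 0.00828 to 0.158.

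HOXA2, which patterns the second pharyngeal arch (ENSG00000105996.7, chr7:27100354-27102686), is the gene next to HOXA3. Its level was 4.79, 5.15 and 5.77 CPM in NC, 3.81, 4.97 and 3.17 in SM2 and 6.00, 5.36 and 5.69 in SM4. SM2 replicate 2 lay inside the NC range, and the other SM2 libraries lay below it. HOXA2 fell by 0.40 on the log2 scale in SM2 (SE 0.142), close to the threshold with an adjusted p of 0.0471. This call was lost in 9 of the 17 alternatives, with adjusted p from 0.00475 to 0.206. The losses included each SM4 library left out (-0.40 and adjusted p = 0.0571 to 0.0588), NC replicate 2 (-0.42, adjusted p = 0.0929), NC replicate 3 (-0.32, adjusted p = 0.179), SM2 replicate 1 (-0.37, adjusted p = 0.0988) and SM2 replicate 3 (-0.25, adjusted p = 0.206). SM4 exceeded SM2 by 0.52 ± 0.14 (adjusted p = 0.0172), with no overlap. Without SM2 replicate 3 this difference was 0.37 (adjusted p = 0.0712), and without SM4 replicate 1 it was 0.48 (adjusted p = 0.0766).

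**Figure D2:**
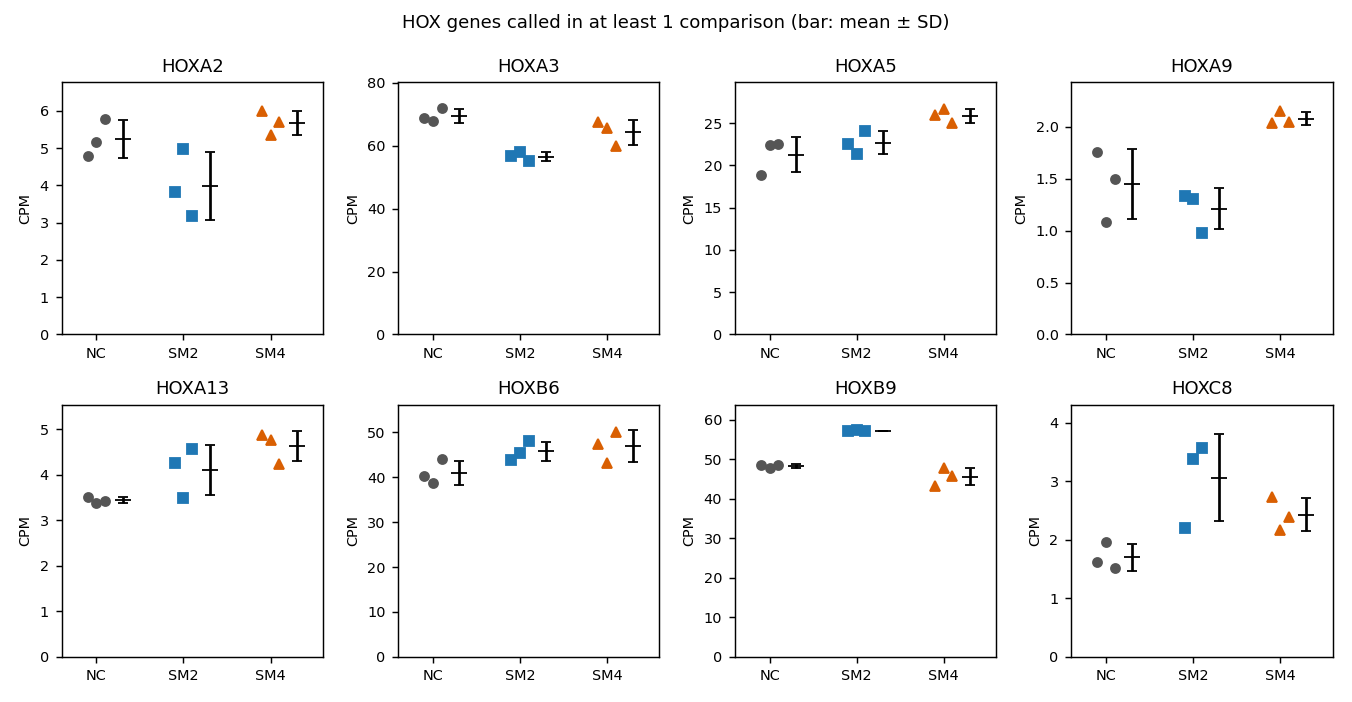
CPM of the 8 HOX genes called in at least 1 of the 3 comparisons, with 1 symbol per library and the mean ± SD of each group (n = 3) beside it; each axis starts at 0. HOXB9 separates SM2 (57.2 to 57.3 CPM) from all other libraries, HOXA3 is lowest in SM2, and HOXA5 and HOXA13 are highest in SM4.

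SM4 against NC compared the libraries labelled SM4 with the same NC libraries, so both comparisons share them. Read with SM4 as the control, each gene called here changed the other way. HOXA5, HOXA13 and HOXB6 rose and 0 HOX genes fell by the edgeR test; DESeq2 also gave 3 higher and 0 lower, whereas with only the 6 libraries compared 5 were higher (HOXA9 and HOXC8 added) and 1, HOXA11, was lower (-0.26, adjusted p = 0.0375). The 3 genes called by edgeR in all 9 libraries are 11.1% of the 27, beside 21.2% of all tested genes. Of all tested genes 11.0% were higher and 10.2% lower. The share of all genes called by DESeq2 or with only the 6 libraries compared is not given here. At an unadjusted p below 0.05 there were 7 HOX genes. The share of all tested genes at that unadjusted threshold was not counted. It is at least the 21.2% called, since adjustment never lowers a p-value. Among the 23 genes with a mean of at least 1 CPM, 3 were called (13.0%, beside 27%). The median log2 fold change was 0.118 over the 27 HOX genes and -0.001 over all tested genes, with HOX values from -0.25 to 0.53. Libraries did not overlap for 10 HOX genes, 6 above and 4 below NC, and for 38.4% of all tested genes.

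HOXA5, a regulator of lung and cervicothoracic development (ENSG00000106004.5, chr7:27141052-27143681), shares no exon base with another gene. Its level was 18.9, 22.4 and 22.6 CPM in NC, 22.5, 21.4 and 24.1 in SM2 and 26, 26.7 and 25 in SM4. The SM4 libraries lay above all others, and NC replicate 1 was the lowest of the 9. HOXA5 rose by 0.28 ± 0.072 on the log2 scale (adjusted p = 0.00737). Without NC replicate 1 the value was 0.21 (adjusted p = 0.0613), the highest adjusted p over the alternatives, and 0.00134 was the lowest. SM2 against NC gave 0.09 (adjusted p = 0.453).

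HOXA13, the most posterior HOXA gene (ENSG00000106031.9, chr7:27193503-27200091), had 3.51, 3.38 and 3.42 CPM in NC, 4.27, 3.49 and 4.56 in SM2 and 4.87, 4.76 and 4.25 in SM4. All SM4 libraries exceeded NC, whereas SM2 replicate 2 reached down into the NC range. The log2 fold change in SM4 was 0.43 ± 0.128 (adjusted p = 0.0193, with 0.0109 to 0.077 over the alternatives), and in SM2 it was 0.26 (adjusted p = 0.174). The SM4 call was lost without NC replicate 2 (0.42, adjusted p = 0.0675), NC replicate 3 (0.43, adjusted p = 0.0552), SM4 replicate 1 (0.40, adjusted p = 0.077) or SM4 replicate 2 (0.41, adjusted p = 0.0599).

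HOXB6 (ENSG00000108511.10, chr17:48595751-48604992), a central HOXB gene with 32.9% of its exon bases shared with other genes, had 40.3, 38.7 and 44 CPM in NC, 43.9, 45.5 and 48.0 in SM2 and 47.4, 43.1 and 50.1 in SM4. NC replicate 3 lay above SM4 replicate 2, so these groups overlapped. The log2 fold change was 0.19 ± 0.063 in SM4 (adjusted p = 0.0346, with 0.00843 to 0.203 over the alternatives) and 0.16 in SM2 (adjusted p = 0.0798). With the replicate number as a block the SM2 value of 0.16 was also called (adjusted p = 0.0284), as it was without NC replicate 3 (0.21, adjusted p = 0.0371). The SM4 call was lost without NC replicate 1 (0.18, adjusted p = 0.105), NC replicate 2 (0.15, adjusted p = 0.191), SM4 replicate 1 (0.19, adjusted p = 0.101) or SM4 replicate 3 (0.14, adjusted p = 0.203).

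Without SM4 replicate 1 or without NC replicate 2, 1 HOX gene was called in SM4 against NC, and without SM2 replicate 3, which enters through the shared estimate of spread, 5 were. The 2 genes gained there were HOXA9 (0.53, adjusted p = 0.0446) and HOXC8 (0.52, adjusted p = 0.0355). The share of all genes called in these fits is not given here.

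SM4 against SM2 tested the difference between these groups directly, since NC cancels. With every sign turned it would be a comparison with the control if SM4 were the control. HOXA9, HOXA2 and HOXA3 were higher and HOXB9 was lower in SM4, 4 of 27 (14.8%) beside 12.8% of all tested genes. Of all tested genes 6.04% were higher and 6.76% lower. Among the 23 HOX genes with a mean of at least 1 CPM the count was 4 (17.4%), beside 16.8% of all genes at that level, 7.89% higher and 8.90% lower. Libraries did not overlap for 7 HOX genes and for 28.3% of all tested genes. The HOX median was 0.11 and that of all tested genes was 0.00. Without SM4 replicate 1 the count was 2, and the share of all genes called in that fit is not given here.

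HOXA9, which marks the oviduct segment (ENSG00000078399.19, chr7:27162438-27175180), gave the largest of these differences. Its level was 1.76, 1.08 and 1.5 CPM in NC, 1.33, 1.31 and 0.98 in SM2 and 2.04, 2.15 and 2.05 in SM4. The SM4 libraries lay above all others, and NC and SM2 overlapped. SM4 exceeded SM2 by 0.79 ± 0.206 on the log2 scale (adjusted p = 0.0136, with 0.00555 to 0.0546 over the alternatives). Without SM2 replicate 3 the difference was 0.65 (adjusted p = 0.0546). Against NC, the values were 0.53 in SM4 (adjusted p = 0.0679) and -0.26 in SM2 (adjusted p = 0.445). Of its exon bases 27% are shared with other genes.

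The other 19 tested HOX genes were called in none of the 3 comparisons. HOXC10, the highest HOXC gene, had 6.54, 5.81 and 6.25 CPM in NC, 5.38, 6.47 and 6.77 in SM2 and 6.76, 7.21 and 6.67 in SM4. Its SM4 libraries lay above NC, while SM2 and NC overlapped. The log2 fold change was 0.15 in SM4 (adjusted p = 0.366) and 0.005 in SM2 (adjusted p = 0.983). HOXA11, the uterine-segment gene, had 9.53, 10.2 and 9.56 CPM in NC, 8.47, 6.84 and 9.92 in SM2 and 7.51, 9.00 and 8.09 in SM4. SM4 lay below NC with a log2 fold change of -0.25 (adjusted p = 0.125). In SM2 its value was -0.22 (adjusted p = 0.198), and without SM2 replicate 3 it was called at -0.35 (adjusted p = 0.0221). HOXB5 was likewise called without that library, in SM4 against SM2 (0.34, adjusted p = 0.0381). HOXB3, the member with the most counts, had 90.0 to 92.3 CPM in NC, 93.2 to 101 in SM2 and 87.9 to 100 in SM4.

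The intervals show what size of change these data leave possible. The 95% interval of the log2 fold change lay within a 1.5-fold change either way for 19 of the 27 HOX genes when SM2 was compared with NC, for 18 when SM4 was compared with NC and for 18 between SM4 and SM2. It lay within a 2-fold change for 25, 27 and 25. The widest intervals belonged to low genes, such as HOXA4 (-0.93 to 0.61 for SM2 against NC at 0.523 CPM in NC) and HOXC9 (-1.08 to 0.08 at 0.966 CPM).

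**Figure D3:**
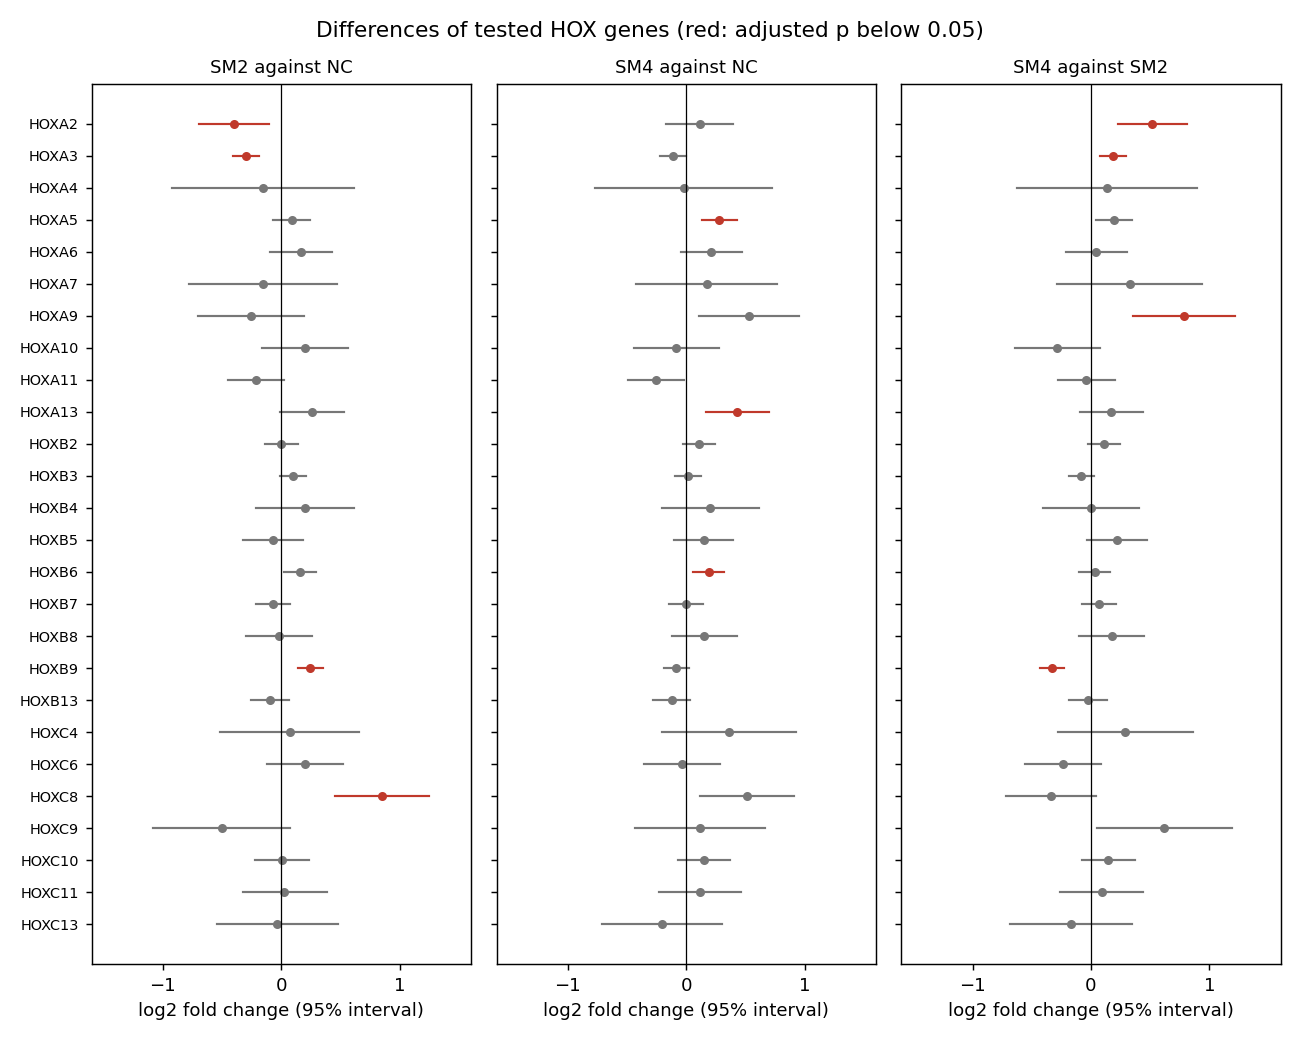
log2 fold change with its 95% interval for the tested HOX genes named on the axis, in order of cluster and position, in 3 panels (SM2 and SM4 each against NC, then SM4 against SM2); red marks an adjusted p below 0.05. Called genes number 4, 3 and 4, and all values lie between -0.50 and 0.85.

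Summed over clusters, HOXA had 121 to 129 CPM in NC, 110 to 111 in SM2 and 120 to 128 in SM4. SM2 lay below both other groups. Within these sums, HOXA3 contributed 69.5 ± 2.22 CPM in NC and 56.5 ± 1.5 CPM in SM2 (SD, n = 3). HOXB had 252 to 262 CPM in NC, 263 to 285 in SM2 and 253 to 276 in SM4. HOXC had 15.3 to 17.2, 16.1 to 19.0 and 17.6 to 18.7 CPM. All 39 genes together gave 396 ± 8.43 CPM in NC, 402 ± 11.9 in SM2 and 406 ± 7.72 in SM4 (SD, n = 3). The libraries ran from 391 to 406, from 390 to 414 and from 398 to 413 CPM, so the groups overlapped in the HOX total.

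Other genes that act with HOX genes were counted from lists written from general knowledge. Of the PBX, MEIS and PKNOX cofactor genes, 8 of 9 were tested and PKNOX2 was not. MEIS1, MEIS2 and MEIS3, whose products bind DNA beside HOX and PBX proteins, rose in both comparisons with NC, and PBX2, PBX3, PBX4 and PKNOX1 were not called. The 3 called genes are 37.5% of the 8, beside 22.3% of all tested genes in SM2 and 21.2% in SM4. Both comparisons share the NC libraries. In SM4 against SM2, 1 of the 8 was called (12.5%, beside 12.8% of all tested genes). MEIS2 was called there at 0.19 (adjusted p = 0.0115). MEIS1 (-0.07, adjusted p = 0.489) and MEIS3 (-0.42, adjusted p = 0.204) were not. The median log2 fold change of the list was 0.128 in SM2 and 0.10 in SM4. MEIS3 had 0.524, 0.533 and 1.09 CPM in NC, 2.69, 3.24 and 2.58 in SM2 and 2.14, 2.07 and 2.14 in SM4. All SM2 and SM4 libraries lay above NC, where replicate 3 was the highest. The log2 fold change was 1.96 ± 0.233 in SM2 (adjusted p = 2.86e-06) and 1.53 ± 0.235 in SM4 (adjusted p = 5.53e-05). MEIS2 ran from 53.0 to 57.8 CPM in NC, 62.7 to 65.6 in SM2 and 71.9 to 74.0 in SM4, with 0.21 in SM2 (adjusted p = 0.0034), 0.39 in SM4 (adjusted p = 3.44e-06) and no overlap. MEIS1 ran from 31.0 to 32.3 CPM in NC, 36.9 to 40.7 in SM2 and 36.2 to 38.2 in SM4, with 0.29 (adjusted p = 0.000614) and 0.22 (adjusted p = 0.00582).

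**Figure D4:**
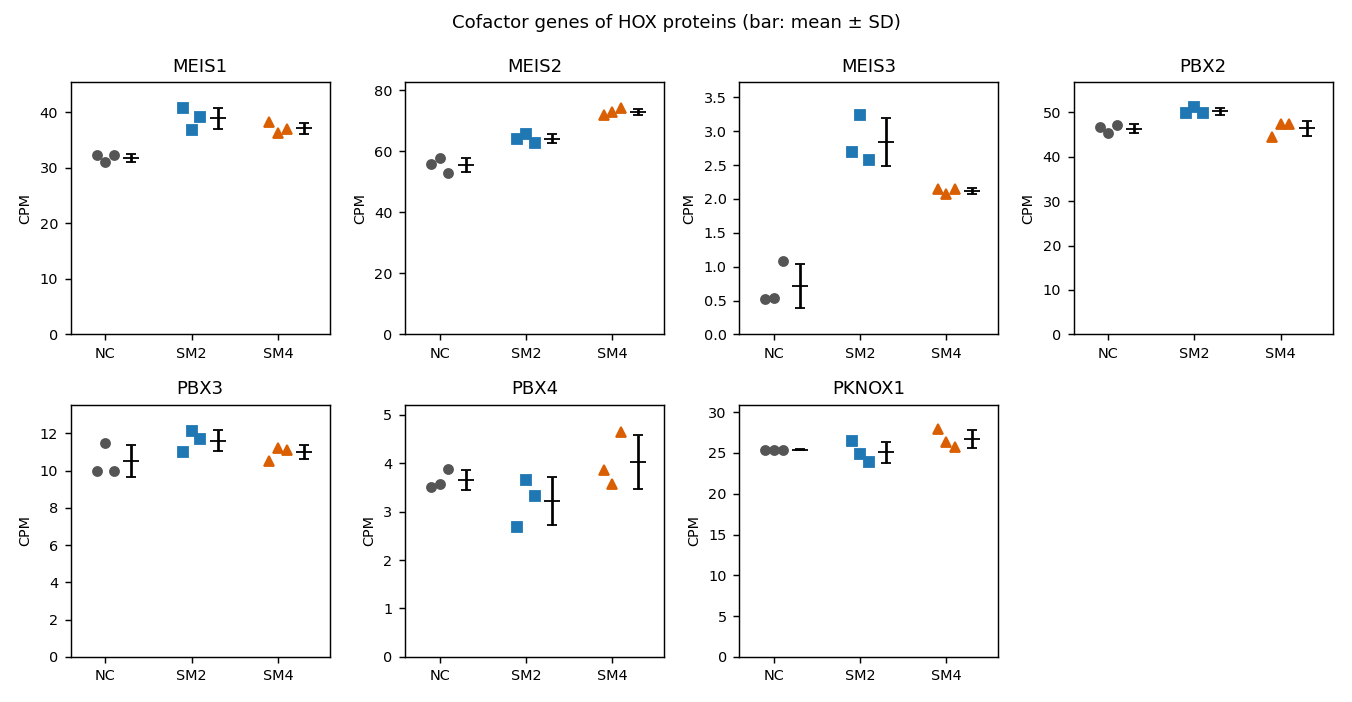
CPM of the named HOX cofactor genes in the 9 libraries, with the mean ± SD of each group (n = 3) and axes from 0. The MEIS1, MEIS2 and MEIS3 libraries of SM2 and SM4 all lie above NC, and PBX2, PBX3, PBX4 and PKNOX1 were not called in SM2 or SM4 against NC.

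All 24 Polycomb genes were tested. In SM2, 5 rose and 4 fell (37.5% of the 24, beside 22.3% of all tested genes), with a median log2 fold change of -0.001. In SM4, 4 rose and 1 fell (20.8%, beside 21.2%), with a median of 0.045. The chromobox genes CBX7 and CBX2 rose in SM2 by 0.45 (adjusted p = 0.000141) and 0.40 (adjusted p = 0.00284), and the values in SM4 were 0.25 (adjusted p = 0.0188) and 0.18 (adjusted p = 0.198). The CBX7 call in SM4 was lost without NC replicate 1 (0.22, adjusted p = 0.0769), without NC replicate 3 (0.24) or without SM4 replicate 3 (0.21, adjusted p = 0.0994). PHC1, a subunit of the PRC1 complex, fell by 0.41 in SM2 (adjusted p = 0.0135) and had 0.08 in SM4 (adjusted p = 0.709). Its SM2 call was lost without SM2 replicate 3, the library that stood apart (-0.34, adjusted p = 0.0577), NC replicate 2 (-0.39, adjusted p = 0.0562) or NC replicate 3 (-0.36, adjusted p = 0.0635). The members that fell in SM2 were the H3K27 methyltransferase gene EZH2, its partner EED, the ubiquitin ligase gene RNF2 and PHC1. The EZH2 difference of -0.14 (adjusted p = 0.0454) lost its call in 11 of the 17 alternatives, with adjusted p up to 0.166 without SM2 replicate 2. EZH2 was higher in SM4 than in SM2 by 0.25 (adjusted p = 0.000894), and EED by 0.23 (adjusted p = 0.004). Both of these calls held under all 17 alternatives. RNF2 was not called there (0.155, adjusted p = 0.12).

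Of the 16 MLL-complex and H3K27 demethylase genes, 2 rose and 1 fell in SM2 (18.8%, beside 22.3% of all tested genes), with a median of 0.031. In SM4, 3 were called, each of them higher (18.8%, beside 21.2%), with a median of 0.084. SM4 against SM2 gave 2 higher and 1 lower (18.8%, beside 12.8%), with a median of 0.041. ASH2L, a shared subunit of MLL complexes, had 58.2 to 61.4 CPM in NC, 74.9 to 77.5 in SM2 and 59.3 to 61.3 in SM4. It rose by 0.36 in SM2 (adjusted p = 7.98e-06) and had 0.02 in SM4 (adjusted p = 0.811). KMT2A, the MLL methyltransferase, had 0.01 in SM2 (adjusted p = 0.93) and rose by 0.29 in SM4 (adjusted p = 0.00698), a call lost without NC replicate 3 (0.24, adjusted p = 0.0534) or SM4 replicate 1 (0.23, adjusted p = 0.059). PSIP1, which tethers MLL to chromatin, rose in both, by 0.28 (adjusted p = 0.000409) and 0.24 (adjusted p = 0.00152). It had -0.04 in SM4 against SM2 (adjusted p = 0.708).

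Of the retinoic acid and CDX genes that act upstream of HOX transcription in the embryo, 14 of 18 were tested; CDX1, CDX4 and RXRG had 0 counts. In SM2, 3 rose and 3 fell (42.9%, beside 22.3% of all tested genes), with a median of -0.032. In SM4, 4 rose and 1 fell (35.7%, beside 21.2%), with a median of 0.069. SM4 against SM2 gave 4 higher and 1 lower (35.7%, beside 12.8%), with a median of 0.115. ALDH1A1, which makes retinoic acid, had 12.3 to 12.9 CPM in NC, 4.84 to 5.68 in SM2 and 12.1 to 13.2 in SM4. It fell by 1.26 on the log2 scale in SM2 (adjusted p = 2.29e-09) and had 0.01 in SM4 (adjusted p = 0.966). CRABP2, which carries retinoic acid to its receptors, rose in SM2 by 0.44 (adjusted p = 2.26e-05) and in SM4 by 0.58 (adjusted p = 5.92e-07). It had 0.14 in SM4 against SM2 (adjusted p = 0.158). CDX2, an intestinal homeobox gene, had 11.7 to 12.7 CPM in NC and 8.34 to 9.47 in SM4, where it fell by 0.45 (adjusted p = 0.000558). In SM2 its value was -0.14 (adjusted p = 0.272).

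A list of 21 other genes of the clusters held 19 long non-coding RNA genes, of which 14 were tested, and the protein-coding PRAC1 and PRAC2 beside HOXB13, which were not. HAGLROS, HOXD-AS2 and PRAC1 had 0 counts, and HAGLR, which starts beside HOXD1, had at most 2 in a library. Low members were not confined to HOXD, since PRAC2 had at most 5 counts in a library and HOXC-AS3 and HOXC13-AS, in HOXC, had at most 4 and 2. By edgeR, 0 of the 14 were called in SM2 or in SM4 against NC, beside 22.3% and 21.2% of all tested genes. The medians were 0.131 and 0.338, beside -0.004 and -0.001 over all tested genes. SM4 against SM2 gave 1 called of the 14 (7.14%, beside 12.8%). At an unadjusted p below 0.05 there were 2 in SM2 and 4 in SM4, and DESeq2 called 1 in SM2 and 0 in SM4. The share of all tested genes at that unadjusted threshold was not counted, and the share under DESeq2 is not given here. HOXB-AS3 had 13.7 to 13.8 CPM in NC, 9.67 to 13.0 in SM2 and 12.1 to 16.1 in SM4. It was higher in SM4 than in SM2 by 0.39 (adjusted p = 0.0186), though these groups overlapped, and this call was lost without SM2 replicate 1 (0.30, adjusted p = 0.0817), SM4 replicate 1 (0.33, adjusted p = 0.10) or SM4 replicate 3 (0.32, adjusted p = 0.106). Its value in SM2 against NC was -0.30 (adjusted p = 0.0571), which was called in 5 of the 17 alternatives. HOTAIR, in the HOXC cluster, had 1.4 CPM in NC, 1.97 in SM2 and 1.92 in SM4 and was not called.

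Genes flanking the clusters were mixed. Of 23 such genes 21 were tested, and EVX1 and EVX2 were not. In SM2, 3 rose and 3 fell (28.6%, beside 22.3% of all tested genes), with a median of 0.009. In SM4, 5 rose and 4 fell (42.9%, beside 21.2%), with a median of -0.038. SM4 against SM2 gave 3 higher and 4 lower (33.3%, beside 12.8%), with a median of -0.031. CALCOCO1, next to HOXC, rose in SM2 by 0.66 (adjusted p = 3.31e-05) and in SM4 by 0.38 (adjusted p = 0.0065), where the call was lost without NC replicate 2 (0.33, adjusted p = 0.0516) or SM4 replicate 3 (0.27, adjusted p = 0.0664). MTX2, beside HOXD, fell by 0.36 in SM4 (adjusted p = 1.39e-05), with -0.13 in SM2 (adjusted p = 0.0771; called without SM2 replicate 3, at -0.15 and adjusted p = 0.0384). SNX10, beyond HOXA, fell by 0.39 in SM4 (adjusted p = 0.00047) and had -0.01 in SM2 (adjusted p = 0.96).

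The letters GGACT, a frequent form of the motif methylated by METTL3, were counted in the canonical transcript of each gene. Tested HOX genes had a median of 1.08 per kilobase, HOX genes that were not tested 0.90, and all tested protein-coding genes 0.93. At least 1 copy was present in 25 of the 27 tested HOX genes. The median GC content was 54.3% for tested HOX genes and 49.2% for all tested protein-coding genes. These counts describe sequence, and methylation was not measured in these libraries.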

How the data were processed

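The deposited table holds the authors' raw gene counts, not normalized, for 9 OVCAR5 libraries. Per the methods and the submitters' processing notes, reads were aligned to hg38 with HISAT2 and counted with Subread featureCounts; versions, gene annotation and strand setting are not given in the sources used here. Labels and methods name different library kits and read layouts. Counts of 2 outnumbered counts of 1 in the table (21812 against 18180), and halved counts were tried as an alternative.

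Of 60649 identifiers, 60463 matched GENCODE v44 without their version, which gave symbols, coordinates and exon lengths. Counts were filtered with filterByExpr (minimum count 10), which left 19674 genes and removed 40975, and scaled to CPM with TMM factors of 0.989 to 1.01. Differences were tested by quasi-likelihood F tests in edgeR 4.0.16 (R 4.3.3), fitted to all 9 libraries with group as the only term. P-values were adjusted by Benjamini-Hochberg over all tested genes, and a gene was called below 0.05. The script was tested on simulated counts. SE is the log2 fold change divided by the root of F. The study used DESeq2 (here 1.42.0), run as an alternative together with other normalizations, filters, libraries left out and a replicate block. Values per library are given for HOX genes at 1 CPM or more in a group that were called in any comparison and for the highest gene of each cluster with transcripts per length. From each list at most 3 genes called against NC with the largest change are named, and HOXA11, HOXB3, HOXB5, EZH2, EED, RNF2, PRAC1, PRAC2, HOXC-AS3, HOXC13-AS, LNPK, ATP5MC3, ATF2, EVX2, HOTAIR and HOXB-AS3 were named after their values were seen. Some genes of these lists enter the counts but are not reported here by name. Members and lists were chosen with earlier results of these data known.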

Additional observations from a re-analysis of the deposited data

Results flagged for a closer look

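The contrast of SM4 with SM2 tests whether the differences from NC are unequal between the libraries labelled SM2 and SM4. Leaving out genes named after their values were seen, 16 named genes passed it by the edgeR test (adjusted p below 0.05). Of all tested genes 12.8% passed. All of these 16 but METTL3 were named because they were called in these same data, HOXA9 only through this contrast. Their number is thus not a result about them. Genes named after their values were seen also passed, among them EZH2 (0.25), EED (0.23) and HOXB-AS3 (0.39). Among HOX genes the log2 differences, SM4 minus SM2, were 0.79 for HOXA9, 0.52 for HOXA2, 0.18 for HOXA3 and -0.33 for HOXB9. Mean levels in NC, SM2 and SM4 were 1.45, 1.21 and 2.08 CPM for HOXA9, 5.24, 3.98 and 5.68 CPM for HOXA2, 69.5, 56.5 and 64.2 CPM for HOXA3 and 48.3, 57.2 and 45.6 CPM for HOXB9. The differences of HOXA2 and HOXA9 were no longer called without SM2 replicate 3, the library that stood apart from its group.

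Outside the clusters, the difference was 0.63 for METTL3, the gene named as the knockdown target. The MEIS2 cofactor differed by 0.19, the Polycomb gene PHC1 by 0.49 and the MLL genes ASH2L and KMT2A by -0.34 and 0.28. ALDH1A1, which makes retinoic acid, differed by 1.26 and CDX2 by -0.31. The flanking genes SNX10 and MTX2 differed by -0.38 and -0.24. Among cell type markers, CLDN3 differed by -0.49, LYZ by -0.67 and PECAM1 by 0.73. The part of the PECAM1 and LYZ differences in the HOX values was not tested.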

How the results depend on the processing

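The counts of called genes and the fold changes of METTL3, of 9 HOX genes (those called in a comparison, and HOXC10) and of the leading genes of each list were recomputed under 17 alternatives, 1 of them (counts halved and rounded) added after seeing the data; the counts were also taken at an adjusted p below 0.01. Promoter and GGACT counts were not varied. The number of HOX genes called in SM4 against NC was 6 (5 higher, 1 lower) with only the 6 libraries compared, 1 at an adjusted p below 0.01, and 1 to 5 with a library left out. SM4 against SM2 gave 1 at an adjusted p below 0.01 and 2 to 4 with a library left out, and SM2 against NC gave 3 to 4. With the replicate number as a block the counts were 5, 3 and 4 (SM2 against NC, SM4 against NC, SM4 against SM2). The number of all genes called stayed within 1.5-fold of its first value in 50 such recomputations and moved further in 4. Its share under each setting is not given here. These HOX counts thus do not show whether HOX genes depend more on the setting than other genes do. Same-numbered libraries of different groups did not deviate together (correlations of -0.05 to 0.05, beside -0.07 to 0.09 for the other pairs). Whether they shared a culture or day cannot be told from these correlations.

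The level of HOXA3 in NC was 23 CPM per kilobase of canonical transcript and 20.1 per kilobase of unshared exon, and that of HOXC10 3.14 and 2.89, because these lengths are shorter. Without a filter 36 HOX genes could be fitted, and 23 had a mean of at least 1 CPM.

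Of 459 log2 fold changes of these 9 HOX genes under the alternatives (27 fold changes under 17 settings), 421 kept their direction and side of the threshold, 23 lost and 11 gained a call, and 4 changed sign. With a library left out, values near 0 changed sign: HOXC10 in SM2 against NC ran from -0.06 to 0.095, HOXB6 in SM4 against SM2 from -0.018 to 0.089, KMT2A in SM2 against NC from -0.064 to 0.092, SNX10 in SM2 against NC from -0.065 to 0.047 and ALDH1A1 in SM4 against NC from -0.021 to 0.04. SNX10 in SM2 also changed sign with upper-quartile factors (0.006). A gene at 1 CPM rests on 43.9 to 63.2 counts per library, which limits what can be said of lower members such as HOXA4, HOXA7 and HOXC4.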
